A study of Mus musculus with 8 samples.

Results

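Enzymes that turn arachidonic acid into prostaglandins, thromboxane and leukotrienes were followed in microglia through 9 of the 27998 genes counted. Transcripts of each gene were found in every library, except for Ptgs2, which was almost absent. The genes were Ptgs1 and Ptgs2 (the cyclooxygenases COX-1 and COX-2), Hpgds (hematopoietic prostaglandin D synthase), Tbxas1 (thromboxane A synthase), Hpgd (the dehydrogenase that inactivates prostaglandins), Alox5 (5-lipoxygenase), Alox5ap (FLAP, which presents arachidonate to 5-lipoxygenase), Ltc4s (leukotriene C4 synthase) and Lta4h (leukotriene A4 hydrolase). They were chosen by their shared pathway and with their CPM levels and shares of expressing cells in these libraries already known, so that each difference between libraries given here is a description and supports nothing on its own. Across the libraries, Ltc4s was the most variable of them. Its level was lower in all A20 cKO libraries than in any control library, as were those of Ptgs1, Alox5ap and Tbxas1. Genotype was largely tied to a set of libraries, as described below.

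The study asked how microglia of the mouse lumbar cord respond to injury of the sciatic nerve, and what the loss of A20, a ubiquitin-editing enzyme that restrains NF-kB signalling, changes in them. Single-cell libraries were made from YFP-positive cells sorted from C57BL/6 mice that were naive or 1, 2 or 3 days after both sciatic nerves had been cut. Animals of both groups carried Cx3cr1-yfp-creER/+, and the A20 cKO animals carried Tnfaip3 fl/fl as well. The methods describe young adult mice given tamoxifen before the experiments. Each of the 8 groups (control naive, control day 1, control day 2, control day 3, and the same for A20 cKO) was 1 library made from pooled animals, so that no spread between animals could be estimated, no test between groups was made, and all intervals below are 95% intervals that cover counting error only. The Cre is driven by Cx3cr1, a gene that other macrophages and monocytes also use, so neither the deletion nor the sort is limited to microglia.

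Eicosanoids are short-lived lipid signals. Phospholipases free arachidonic acid from membranes, cyclooxygenases convert it to prostaglandin H2, and terminal synthases make prostaglandin D2, prostaglandin E2 or thromboxane A2 from that intermediate, while 5-lipoxygenase with FLAP makes leukotriene A4, from which Lta4h makes the neutrophil attractant LTB4 and Ltc4s makes the cysteinyl leukotriene LTC4. COX-1 is usually constitutive and COX-2 usually induced by inflammation, and prostaglandin D2 and the products of COX-1 are known for microglia in particular.

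On GRCm38 (GENCODE), Ptgs1 spans chr2:36230426-36252272, Ptgs2 chr1:150100031-150108227, Hpgd chr8:56294585-56321043, Tbxas1 chr6:38875404-39084585, Alox5ap chr5:149264767-149288153 and Lta4h chr10:93453411-93484875 on the plus strand. Hpgds spans chr6:65117293-65144908, Alox5 chr6:116410077-116461178 and Ltc4s chr11:50236461-50238616 on the minus strand. For the cyclooxygenases and for Ltc4s and Hpgds, the bases ahead of the transcription start are shown, since Ptgs1 was abundant and Ptgs2 almost absent in the levels below, and Ltc4s and Hpgds differed between G2/M cells and other cells within libraries. The sequences are from RefSeq on GRCm38.p6, written 5′ to 3′ on the strand of the gene. Ptgs1 lies at chr2:36230176-36230425 (plus strand), Ptgs2 at chr1:150099781-150100030 (plus), Ltc4s at chr11:50238617-50238782 (minus) and Hpgds, of which only a 30-base stretch is given, at chr6:65144761-65144790 (minus). The first 3 lie directly ahead of the annotated gene, and the Hpgds stretch lies ahead of the RefSeq start but inside an exon of the longer GENCODE gene. Capitals mark letters recognised by families of transcription factors, GAGGAAGT or its shorter core GGAAGT (PU.1 and related ETS factors, which macrophages depend on) and TTGCGCAA (C/EBP factors).
Ptgs1: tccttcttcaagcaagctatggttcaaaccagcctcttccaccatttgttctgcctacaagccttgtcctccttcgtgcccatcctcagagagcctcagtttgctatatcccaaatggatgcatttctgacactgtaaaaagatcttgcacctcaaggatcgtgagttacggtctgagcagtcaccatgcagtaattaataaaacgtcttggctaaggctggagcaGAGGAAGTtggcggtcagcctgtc
Ptgs2: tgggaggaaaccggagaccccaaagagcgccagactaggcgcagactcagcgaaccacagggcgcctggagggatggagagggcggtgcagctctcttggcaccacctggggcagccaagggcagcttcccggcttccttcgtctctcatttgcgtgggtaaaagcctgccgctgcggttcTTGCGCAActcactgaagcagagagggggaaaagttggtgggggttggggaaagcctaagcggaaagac
Ltc4s: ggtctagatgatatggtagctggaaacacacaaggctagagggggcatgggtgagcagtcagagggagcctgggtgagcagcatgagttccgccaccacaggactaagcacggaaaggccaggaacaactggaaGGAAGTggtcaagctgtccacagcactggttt
Hpgds: gcttttaggtgGAGGAAGTggcctctggct
The letters GAGGAAGT, which contain GGAAGT, were found in 2 of the 8 genes with a RefSeq promoter (Ptgs1 and Hpgds), against 3.20% of all 32851 promoter windows on both strands. GGAAGT occurred in 3 of the 8 genes (Ptgs1, Hpgds and Ltc4s), against 23.8% of the windows, and TTGCGCAA in 1 of 8 (Ptgs2), against 0.183%. The search also held CACGTG and TACGTCA, each found in 1 of 8 (Ptgs2), against 7.15% and 1.27%. Both of those matches lie after the start, outside the stretch shown. TATAAA was found in 2 of 8 (Hpgd and Tbxas1), against 13.6%. The motifs were chosen after these sequences had been read, a match is a description of letters and not a bound site, and nothing about binding was measured.

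The libraries differed in size and fell into sets. Kept cells numbered from 558 to 3585 per library (14626 of 14883 barcodes in all) and their UMIs, the counted molecules, from 1620481 to 15817426. The 4 A20 cKO libraries and control day 3 shared cell barcodes with one another more often than the other 3 libraries did, at 13.2 shared barcodes per 1000000 barcode pairs against 1.67 among control naive, day 1 and day 2 and 1.77 across. These are pooled rates. Single pairs of libraries ranged from 5.41 to 67.6, from 1.48 to 2.29 and from 0.797 to 8.83 in that order, so the first and last ranges overlap. The 4 A20 cKO libraries and control day 3, 5 in all and called linked here, also held 118 of the 121 kept cells with at least 3 markers of another cell type. Genotype was therefore tied to this set, except that control day 3 and A20 cKO day 3 belong to the same set, and comparisons that cross from 1 set to the other are named as such. All 8 microglia markers tested were present in every set of libraries, but their summed level was 11892 to 18936 CPM (UMIs of a gene per 1000000 UMIs of the kept cells) in the linked libraries and 19957 to 24672 in the others. Among the other lists, the choroid plexus genes summed to 126 to 397 CPM in the linked libraries and at most 0.0711 in the rest, with Ttr and Kl at 0 there, and oligodendrocyte genes to 149 to 202 against 60.1 to 83.3. The choroid plexus sum was almost all Ttr. Neutrophil genes summed to 26.8 to 46.6 CPM against at most 0.126, and monocyte genes to 30.3 to 97.9 against 2.63 to 4.30. Most of the monocyte sum in the linked libraries was Plac8, at 22.1 to 83.4 CPM against 0.925 to 1.85. Fn1 was at 1.35 to 12.9 against 0 to 2.09, and Chil3 at most 1.46 against 0. Ccr2 did not follow, at 0.330 to 2.36 against 0.632 to 1.85, and Ly6c2 was at most 0.660 in any library. Mast cells and platelets, which also make eicosanoids, were almost absent by their markers: mast cell genes summed to at most 1.18 CPM, and the platelet genes Ppbp and Gp1bb were at 0 in the linked libraries. The platelet sum was almost all Gp9, at 62.5 to 83.3 CPM in the unlinked libraries and 7.87 to 39.2 in the linked ones, and its part in the results was not tested. Tnfaip3 itself was at 6.83 to 25.3 CPM in controls and 42.3 to 67.7 in A20 cKO, and a 3′ count does not show whether the floxed part of the gene was deleted. Fewer cells of a type and less RNA per cell cannot be told apart in a sum over cells.

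Of the cyclooxygenases, Ptgs1 was found in every library and Ptgs2 was almost absent. Ptgs1 stood at 668 CPM (interval 629 to 709) in control animals without injury, and at 761 (747 to 775), 662 (650 to 675) and 646 (627 to 664) CPM after 1, 2 and 3 days of injury. The matching A20 cKO levels were 614 CPM (598 to 631) without injury, then 463 (439 to 487), 408 (386 to 432) and 448 (423 to 475) CPM. Every A20 cKO library was thus below every control library, and of the neighbours in this order, control naive and day 2, control day 2 and day 3, and A20 cKO days 1 and 3 could not be separated. Its highest level was 1.86 times its lowest. Ptgs2 gave 9 UMIs in all 14626 cells, 5 in control day 1, 1 in control day 3, 2 in A20 cKO naive and 1 in A20 cKO day 1, each from a different cell. With no UMI, its level was at most 1.85 CPM in control naive, 0.190 in control day 2, 0.989 in A20 cKO day 2 and 1.18 in A20 cKO day 3. Of the 9 cells, 3 carried at least 3 endothelial markers and 0 or 1 of the 8 microglia markers, while the other 6 carried 7 or 8 microglia markers. Control day 1, with 5 of these UMIs, was also the library with the highest Fos, an immediate-early gene, at 4105 CPM against 20.4 in control naive and 13.2 in A20 cKO day 1. The part of this in its Ptgs2 UMIs was not tested.

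**Figure D1:**
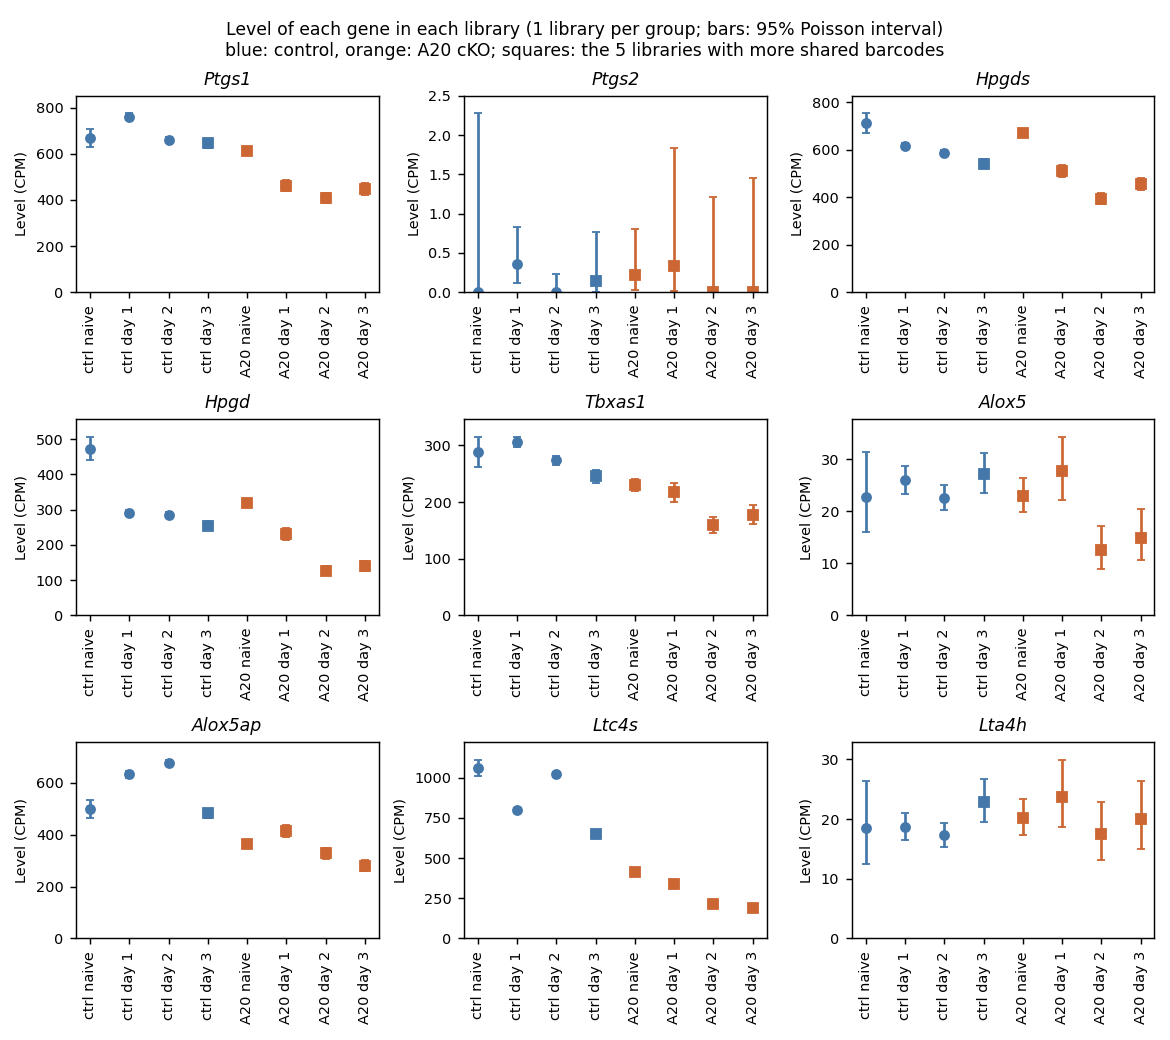
Level of each gene in CPM (vertical axis, a separate scale from 0 in each panel) in each of the 8 libraries, with bars for the 95% Poisson interval; blue marks control, orange A20 cKO, and squares the 5 linked libraries. Ltc4s, Ptgs1, Alox5ap and Tbxas1 were lower in every A20 cKO library than in every control library, although Tbxas1 in control day 3 and A20 cKO naive could not be separated. Lta4h stayed between 17.3 and 23.8 CPM and Ptgs2 was at or near 0 throughout.

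Both synthases downstream of cyclooxygenase, which make prostaglandin D2 and thromboxane A2, ranged over about as many fold as Ptgs1. From naive to day 3, Hpgds was at 710, 614, 587 and 541 CPM in the control libraries. For A20 cKO the corresponding levels were 670, 509, 393 and 454 CPM. The control and A20 cKO naive libraries were the highest and could not be separated, and Hpgds ranged over 1.81-fold. Tbxas1 gave 288, 306, 274 and 245 CPM over the control course, against 230, 217, 159 and 177 CPM over the A20 cKO course. Its A20 cKO libraries were below its control libraries, with a range of 1.93-fold, but control day 3 and A20 cKO naive were not separable, and neither were A20 cKO naive and day 1. Prostaglandin E2 has its own inducible synthase, Ptges, and this gene gave at most 3 UMIs in any library.

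Hpgd, which ends prostaglandin signalling by oxidising the molecule, had the second widest range. It was at 473 CPM (interval 440 to 507) in control naive and at 291, 286 and 255 CPM on days 1, 2 and 3. A20 cKO cells had 319 CPM when naive and 231 CPM a day after injury, followed by 126 (113 to 139) and 139 (125 to 154) CPM on days 2 and 3. Control naive was above all the other libraries, and A20 cKO days 2 and 3 lay below the rest and were not separable from each other. The levels of the groups overlapped, since A20 cKO naive was above control days 1, 2 and 3.

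The leukotriene branch was unequal between its steps. Alox5 gave 22.8, 26.0, 22.6 and 27.2 CPM over the control course from naive to day 3, against 23.0, 27.7, 12.5 and 14.95 CPM for A20 cKO. Its lowest levels, in A20 cKO days 2 and 3, rest on 38 UMIs each, and of the neighbours in its order only control day 2 and A20 cKO day 3 could be separated. Alox5ap was much more abundant than Alox5, at 499, 633, 676 and 482 CPM over the control course, against 364, 415, 328 and 281 CPM for A20 cKO. A20 cKO libraries lay below control libraries for Alox5ap, and control days 1 and 2 were the highest. These are counts of molecules by their 3′ ends, so that genes can be set side by side without a correction for length, although capture can differ between genes.

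Ltc4s had the highest level of the 9 genes in each control library, although in control day 3 its interval overlapped that of Ptgs1, and in A20 cKO day 3 it stood below Hpgds, Ptgs1 and Alox5ap. Its control level was 1061 CPM (interval 1011 to 1112) without injury and 800 (785 to 815), 1022 (1006 to 1037) and 650 (631 to 669) CPM after 1, 2 and 3 days. For A20 cKO the level was 413 CPM (400 to 427) without injury, then 342 (321 to 363), 215 (198 to 232) and 188 (171 to 205) CPM. The highest was 5.65 times the lowest, no A20 cKO library reached the lowest control library, and only control naive and day 2 could not be separated from each other. Lta4h, the competing use of leukotriene A4, gave 18.5, 18.6, 17.3 and 22.9 CPM over the control course against 20.2, 23.8, 17.5 and 20.1 CPM for A20 cKO, with no pair of neighbours in its order separable.

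The 9 genes summed to 3739 CPM (3645 to 3834) in control naive, with 3450, 3546 and 2869 CPM over the injured control libraries, while the A20 cKO sums were 2654, 2228, 1658 (1613 to 1705) and 1722 (1671 to 1774) CPM. Of these UMIs Ltc4s supplied 28.4, 23.2, 28.8 and 22.6% over the control course but 15.6, 15.3, 12.9 and 10.9% over the A20 cKO course. Hpgds supplied 16.5 to 19.0% in control and 22.8 to 26.4% in A20 cKO, and Ptgs1 17.9 to 22.5% and 20.8 to 26.0%. The A20 cKO libraries therefore held a smaller share of LTC4 synthase among the eicosanoid transcripts and a larger share of prostaglandin D synthase. Shares of one sum depend on each other, and the level of Hpgds itself was not higher in A20 cKO. It was 393 to 670 CPM there against 541 to 710 CPM in control. Genotype is also tied to the set of libraries, except on day 3.

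**Figure D2:**
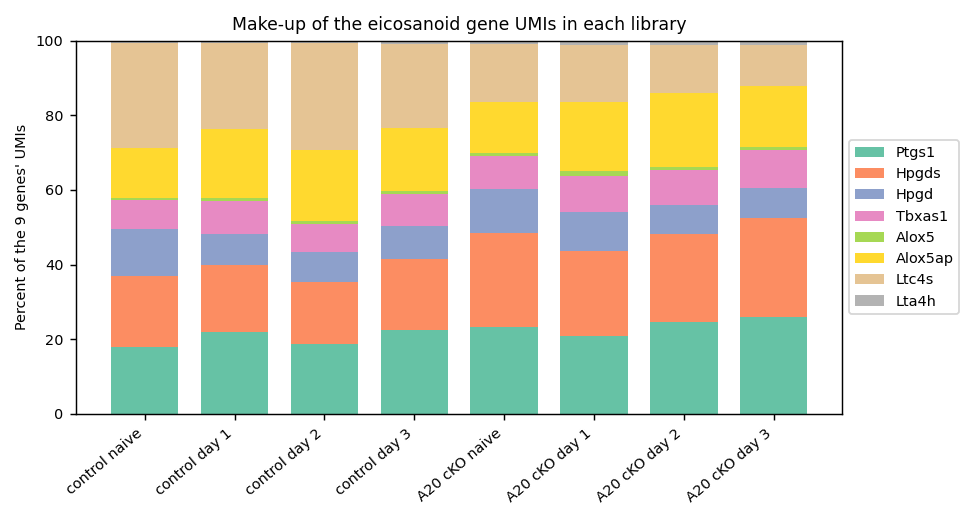
Share of the 9 genes' UMIs that each gene supplied (vertical axis, percent) in each library; Ptgs2 is left out because its 9 UMIs would not be visible. The Ltc4s block narrows from 28.4% in control naive to 10.9% in A20 cKO day 3.

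Nerve injury in control animals left most of these transcripts within 2-fold of the naive level. Ratios are given as log2 of the first library over the second, with 0.5 UMIs added, among genes with at least 100 UMIs in both libraries together. Ptgs2 never reached that number, so 8 of the 9 genes were compared. On day 1 none of the 8 was 2-fold higher or lower, where 3.82% of all genes were higher and 7.25% were lower, and their median was 0.04 against -0.13 for all genes. On day 2 the count was again 0 each way, against 5.92% and 6.28% of all genes, and the medians were -0.07 and -0.12. Hpgd was the lowest of the 8 on both days, at -0.70 (interval -0.81 to -0.59) and -0.73 (-0.84 to -0.62). Alox5ap was the highest, at 0.34 (0.24 to 0.45) and 0.44 (0.34 to 0.54), or 0.47 and 0.56 relative to the median gene. Ltc4s was lower on day 1, at -0.41 (-0.48 to -0.33), and close to naive on day 2, at -0.05 (-0.13 to 0.02), so that it was 0.35 (0.32 to 0.39) higher on day 2 than on day 1. Control day 1 also had the highest level of 8 of 8 immediate-early genes, which summed to 18147 CPM there against 921 in control naive and 1552 in control day 2, and their part in these ratios was not tested. Between days 1 and 2 no gene of the 8 passed 2-fold, against 3.8% of all genes higher and 1.83% lower. Control day 3 can be set against the other control libraries only across the sets. No gene of the 8 passed 2-fold there, against 8.76% higher and 2.32% lower for day 3 over naive and 13.1% and 2.69% for day 3 over day 2, and the largest ratios were Hpgd at -0.89 and Ltc4s at -0.71 over naive.

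The genotypes could be compared within the linked set only on day 3. All 8 genes were then lower in A20 cKO, with a median of -0.65 against -0.12 for all genes, of which 64.0% were below 0. Ltc4s was the 1 gene of the 8 past 2-fold, against 2.4% of all genes lower and 1.86% higher, at -1.79 (-1.93 to -1.66), or 3.46-fold lower, and -1.67 relative to the median gene. Hpgd followed at -0.87 (-1.04 to -0.71), Alox5 at -0.85 (-1.40 to -0.36), Alox5ap at -0.78 (-0.90 to -0.66), Ptgs1 at -0.53 (-0.62 to -0.43) and Tbxas1 at -0.47 (-0.62 to -0.32). Hpgds differed less, at -0.25 (-0.35 to -0.16), and for Lta4h the interval held 0, at -0.18 (-0.67 to 0.27). Between the naive libraries, which cross the sets, Ltc4s was again the only gene of the 8 past 2-fold, at -1.36 (-1.44 to -1.28), where 2.22% of all genes were lower and 7.43% higher. Whether genotype or the set of libraries gave that difference cannot be told apart. Homeostatic microglia markers were lower with it on day 3: P2ry12, a purinergic receptor, stood at 2191 CPM in control and 845 in A20 cKO, and Fcrls at 1078 and 113.

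Within A20 cKO, whose 4 libraries are all linked, day 1 had no gene of the 8 past 2-fold, against 1.56% of all genes higher and 1.39% lower. Ptgs1 was at -0.41 (-0.49 to -0.32), Hpgds at -0.40 and Hpgd at -0.46 there, and Alox5ap was higher at 0.19 (0.09 to 0.28). By day 2 all 8 were below the naive library, with a median of -0.68 against -0.07 for all genes. Hpgd was past 2-fold, at -1.34 (-1.50 to -1.19), against 2.65% of genes lower and 2.86% higher, and Ltc4s was at -0.95 (-1.07 to -0.83). On day 3 Hpgd was at -1.20 (-1.36 to -1.04) and Ltc4s at -1.14 (-1.28 to -1.001), 2 genes of the 8 past 2-fold against 2% of all genes lower and 1.92% higher, and the medians were -0.51 and -0.10. P2ry12 went from 2755 CPM in A20 cKO naive to 908 on day 2 and 845 on day 3 in the same libraries. The immediate-early genes differed among these libraries as well: 8 of 8 were higher in A20 cKO naive than on days 1 and 2, and their summed level was 3786 CPM in naive and 802, 728 and 3115 CPM after 1, 2 and 3 days of injury. Their part in the ratios was not tested. The A20 cKO libraries of these days are small, at 886 cells or fewer after naive.

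**Figure D3:**
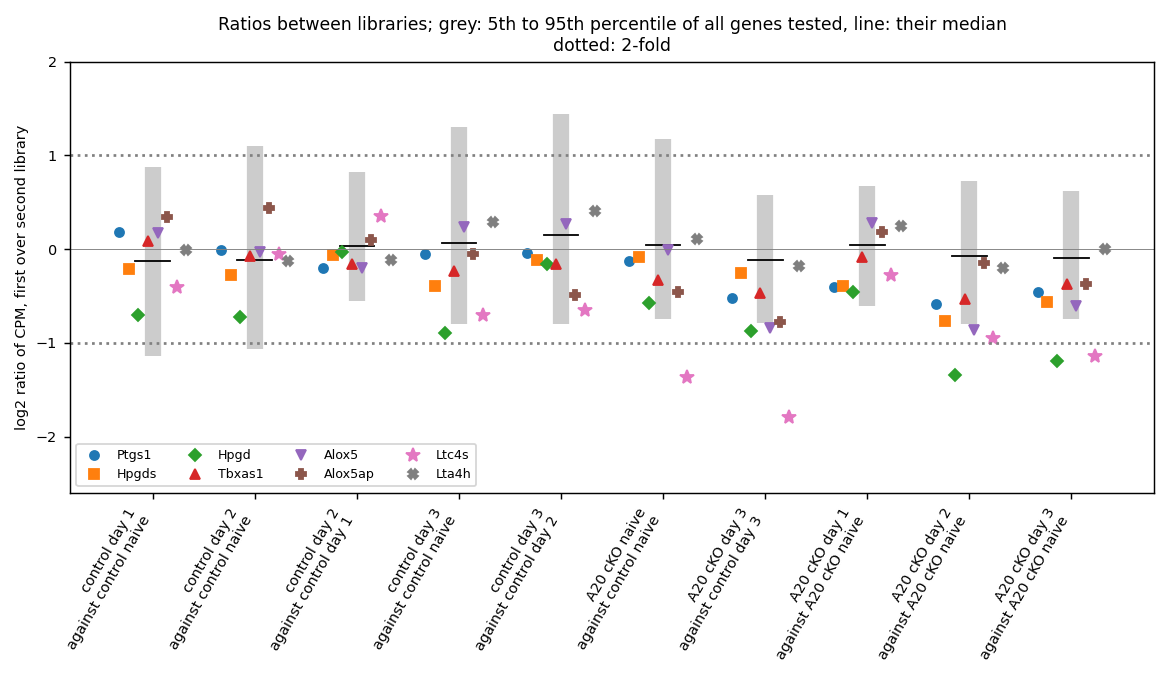
log2 ratio of CPM (vertical axis) for the 8 genes compared, in each of the 10 pairs of libraries; grey bars run from the 5th to the 95th percentile of all genes tested and the short line is their median. Ltc4s is the lowest point in both comparisons of A20 cKO with control, at -1.36 and -1.79, and Hpgd in A20 cKO days 2 and 3 over naive, at -1.34 and -1.20.

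The levels per cell followed the sums. After each cell was thinned to 2000 UMIs, which left 13691 cells, 83.7, 80.0, 86.6 and 68.7% of control cells from naive to day 3 carried Ltc4s, against 51.9, 45.3, 32.3 and 27.5% of A20 cKO cells. Before thinning these shares were 90.7, 94.3, 97.0 and 80.4%, and 62.3, 59.8, 50.7 and 46.8%. Cells with 3 or more Ltc4s UMIs made up 36.9, 24.2, 34.9 and 16.99% over the control course, against 9.46, 7.35, 2.40 and 1.67% for A20 cKO. Ptgs1 was found in 69.1 to 77.6% of thinned control cells and 51.9 to 66.7% of A20 cKO cells, Hpgds in 65.7 to 74.9% and 52.2 to 71.2%, and Hpgd in 39.2 to 59.96% and 19.97 to 44.6%. Unthinned, the ranges for control and A20 cKO were 81.9 to 93.4% and 71.3 to 78.8% for Ptgs1, 79.1 to 90.1% and 77.3 to 82.4% for Hpgds, and 51.0 to 68.7% and 37.0 to 54.7% for Hpgd. In the 121 cells with at least 3 markers of another type, unthinned at a median of 3312 UMIs, Ltc4s was found in 57.0% (47.7 to 65.99%), Ptgs1 in 71.1%, Hpgds in 69.4% and Hpgd in 46.3%. Set against unthinned libraries, the Ptgs1 and Hpgds shares were below those of all 8, while the Ltc4s and Hpgd shares were above those of A20 cKO days 2 and 3. With 121 cells this order is not firm. The intervals of Ptgs1 (62.1 to 79.0%) and Hpgds (60.4 to 77.5%) held the lowest library shares. That of Ltc4s held the share of A20 cKO day 2, and that of Hpgd (37.2 to 55.6%) the share of A20 cKO day 3. A cell that holds microglial RNA as well as other markers cannot be told apart from one that does not express the gene.

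Most thinned cells held a UMI of several of the genes, although a UMI can also come from free RNA, whose level was not measured. The median thinned control cell carried a UMI of 4 of the 9 genes in every control library, against 3, 3, 2 and 2 in A20 cKO naive, day 1, day 2 and day 3. Cells with none made up at most 0.905% in control and 2.03, 2.89, 5.91 and 6.32% in A20 cKO. Cells with at least 1 UMI of the prostaglandin branch (Ptgs1 or Hpgds) and at least 1 of the leukotriene branch (Alox5ap or Ltc4s) made up 77.8 to 88.4% of control cells and 46.5 to 69.0% of A20 cKO cells. Ltc4s varied from cell to cell more than a Poisson count in most libraries, with a ratio of variance to mean of 1.09 to 1.34 in control and 1.39 to 1.55 in A20 cKO.

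**Figure D4:**
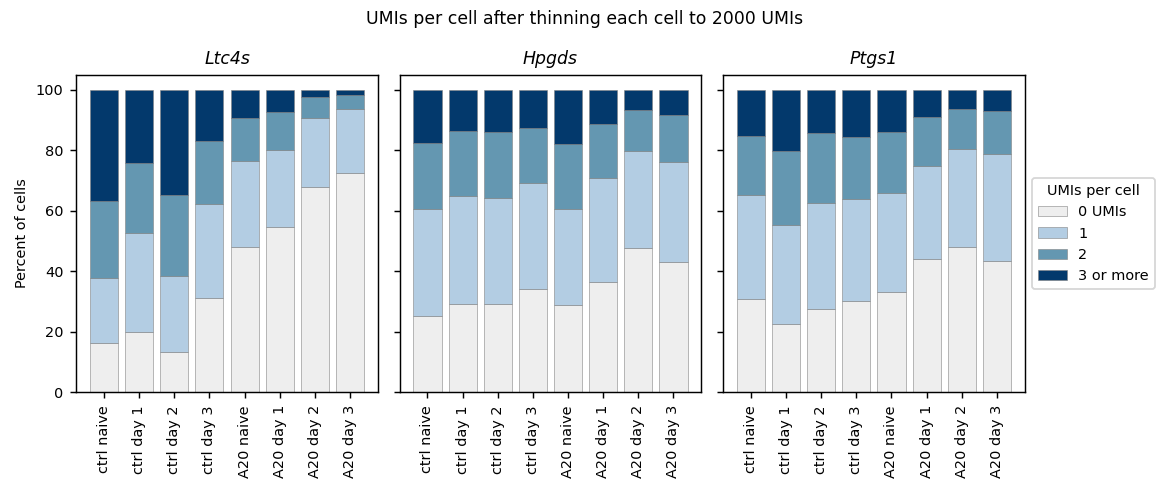
Share of cells (vertical axis, percent) with 0, 1, 2, or 3 or more UMIs of Ltc4s, Hpgds and Ptgs1 after thinning each cell to 2000 UMIs. Cells without Ltc4s widen from control naive to A20 cKO day 3, where 27.5% of cells still carry it.

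Ltc4s and Hpgds had lower CPM in cells carrying G2/M transcripts than in other cells of the same library. This comparison did not use the differences between libraries. A cell was called G2/M where 3 or more of a list of 18 genes of that phase had a UMI, and 6 libraries had at least 30 such cells. Ltc4s was at 938 CPM in G2/M cells and 1079 in the other cells of control day 2, at 411 and 696 in control day 3, at 170 and 427 in A20 cKO naive, at 120 and 355 in A20 cKO day 1, at 98.4 and 250 in A20 cKO day 2, and at 72.9 and 205 in A20 cKO day 3. Its log2 ratios in that order were -0.20 (-0.25 to -0.16), -0.76 (-0.90 to -0.62), -1.32 (-1.66 to -1.005), -1.54 (-2.27 to -0.95), -1.34 (-1.73 to -0.99) and -1.46 (-2.15 to -0.90). It was lower in the G2/M cells of 6 of 6 libraries, while the median of all genes lay within 0.02 of 0. Hpgds was lower in 6 of 6 as well, at -0.41, -0.70, -0.79, -0.72, -0.71 and -0.76. Ptgs1 showed no common direction, at 0.09, -0.15, -0.08, 0.26, 0.45 and -0.23, and neither did Hpgd, at -0.37, -0.34, -0.56, 0.07, -0.09 and 0.47. A uniform sign was not particular to Ltc4s and Hpgds. Tbxas1, at -0.26 to -0.04, and Alox5ap, at -0.43 to -0.03, were also below 0 in 6 of 6. Their intervals held 0, except for Alox5ap in A20 cKO naive. Lta4h was above 0 in 6 of 6, at 0.03 to 1.11, with an interval above 0 only in A20 cKO day 2. G2/M cells were deeper, with median UMIs of 4744 to 6680 against 2795 to 4149, and cells of 1 library are not replicates. CPM are shares of the UMIs, so a lower CPM need not mean fewer molecules per cell. In control day 2, 1091 G2/M cells held 6083 Ltc4s and 3192 Hpgds UMIs, and 2494 other cells held 10076 and 6088. Both genes were thus higher per cell in the G2/M cells there. Elsewhere Ltc4s was lower per cell in G2/M cells, and Hpgds differed less. Thinning all cells to 2000 UMIs left Ltc4s at -1.53 to -0.15 and Hpgds at -0.78 to -0.37.

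**Figure D5:**
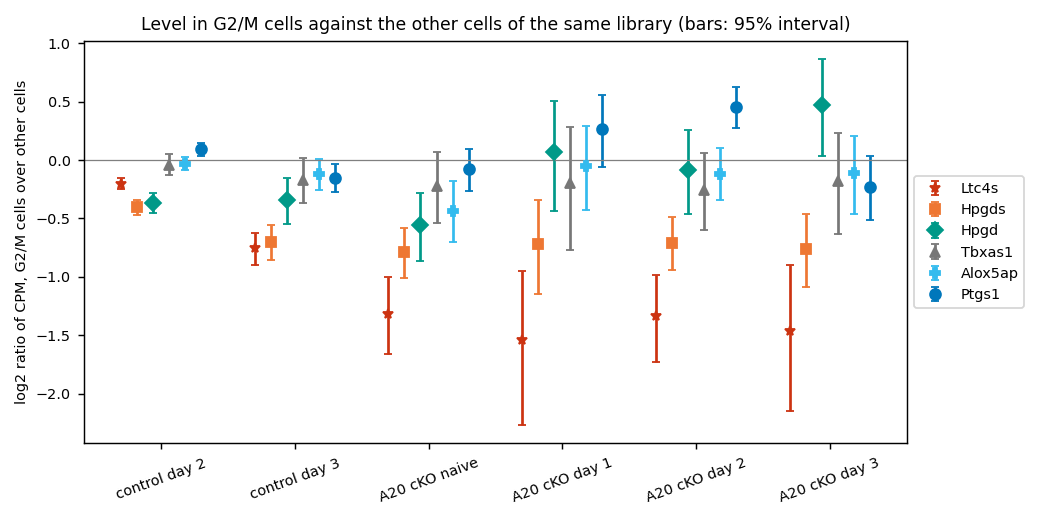
log2 ratio of CPM in G2/M cells over the other cells of the same library (vertical axis) for 6 genes in the 6 libraries with at least 30 G2/M cells, with bars for the 95% interval. Ltc4s and Hpgds lie below 0 with their whole intervals in all 6 libraries, Ltc4s furthest in A20 cKO. Tbxas1 and Alox5ap also lie below 0, mostly with intervals that hold 0, whereas Ptgs1 and Hpgd lie on either side of 0.

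The genes around these enzymes were described by a list of 53 in 5 roles, of which 18 to 22 had enough UMIs in any comparison. Phospholipases and lipases that release arachidonate were present in part, with 7 of 13 at a mean of at least 10 CPM, and Pla2g4a, the cytosolic phospholipase A2, was at 71.6 CPM in control naive and at 110 to 162 CPM in all other libraries. Of the terminal synthases 2 of 5 reached 10 CPM, of the other lipoxygenases and leukotriene steps 4 of 14, of inactivation and transport genes 4 of 6 and of receptors 2 of 15, with 12 of the 15 receptors below 1 CPM. Cysltr1, which receives the cysteinyl leukotrienes that Ltc4s leads to, was the receptor best detected, at 89.0 to 147 CPM.

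At most 3 of these genes passed 2-fold in any comparison. In control day 1 over naive 2 were higher and 1 was lower of 20, where 3.82% of all genes were higher and 7.25% lower, Ptger4 (a prostaglandin E2 receptor) at 1.36 (0.23 to 3.14), Ptgds (lipocalin-type prostaglandin D synthase) at 1.23 (0.25 to 2.66) and Ptgr2, a prostaglandin reductase, at -1.17. In control day 2 over naive 2 of 22 were higher, against 5.92% of all genes, Cyp4f18, which hydroxylates LTB4, at 2.23 (1.32 to 3.54) and Ptgr1, a reductase of LTB4 and prostaglandins, at 1.25 (0.53 to 2.18). Control naive held 5 UMIs of Ptger4, 7 of Ptgds and 8 of Cyp4f18, so that ratios to it are wide. Cyp4f18 was also the 1 of 22 past 2-fold from control day 1 to day 2, where 3.8% of all genes were higher, at 2.00. Across the sets, control day 3 over naive had 2 of 18 higher (8.76% of all genes), Cyp4f18 at 2.28 and Ptgr1 at 1.14, and 1 lower (2.32% of all), Pla2g15 (lysosomal phospholipase A2) at -1.53. Control day 3 over day 2 had 2 of 22 lower (2.69% of all), Pla2g15 at -1.25 and Ptges2 at -1.17, and A20 cKO naive over control naive had 2 of 20 higher (7.43% of all), Cyp4f18 at 2.84 and Ptger4 at 2.22. In A20 cKO day 3 over control day 3, 2 of 19 were higher (1.86% of all), Cyp4f18 at 1.70 (1.41 to 2.00) and Ptger4 at 1.40 (0.92 to 1.89), and 1 was lower (2.4% of all), Mgll, the lipase that frees arachidonate from 2-arachidonoylglycerol, at -1.47 (-1.95 to -1.04). Within A20 cKO, 0 of 20 passed on day 1, against 1.56% of all genes higher and 1.39% lower. On day 2 Ptger4 was higher at 1.06, against 2.86% of all genes, and Mgll and Pla2g15 lower at -1.26 and -1.09, against 2.65%. On day 3 Cyp4f18 was higher at 1.14, against 1.92%, and Mgll lower at -1.53, against 2%. Cyp4f18 gave 4.94, 6.12, 24.6 and 25.4 CPM over the control course and 37.4, 31.4, 57.4 and 82.6 CPM for A20 cKO, so that it was highest where Ltc4s was lowest.

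The genes whose levels over the 8 libraries ran most like each of the main enzymes were found by the root mean square difference of mean-centred log2 CPM among 3265 genes. For Ltc4s these were Serpinf1 (0.124), Ecscr (0.189) and Ccl6 (0.202). For Hpgd they were Prkca (0.141), Sepp1 (0.142) and Rnase4 (0.144), and for Ptgs1 Tprgl (0.0753), St3gal5 (0.0963) and Fez2 (0.0966). Hpgds was nearest to Vps37b (0.0770), Gna15 (0.0891) and Smap2 (0.0900). Tbxas1 was nearest to Sypl (0.0771) and then to Ptgs1 (0.0998), and Alox5ap to Dad1 (0.0858), Tm2d3 (0.0902) and Cd3eap (0.0950). The likeness is over 8 libraries that share the sets described above.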

How the data were processed

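Lumbar cord cells sorted for YFP were sequenced with a 10x Genomics 3′ kit, and the authors deposited for each of the 8 libraries a table of counts (UMIs per gene and cell), made with Cell Ranger 2.1.1 on mm10 according to the submitters' processing notes. Which gene annotation was used is not given in the sources used here. The labels and the methods name different versions of the kit. From the counts, cells with at least 1000 UMIs, at least 500 genes and at most 10% mitochondrial UMIs were kept, and UMIs were summed per library as CPM. No doublet caller was run.

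CPM have exact Poisson intervals, ratios exact conditional intervals and shares of cells exact Clopper-Pearson intervals, all at 95%. A level at 0 is given as the limit that 3 UMIs would set. Called means at least 2-fold. Cells were thinned to 2000 UMIs for shares. No test between groups was made, since each group was 1 library. The ratio procedure was tested on simulated data. All 9 genes are named. Of the 53 pathway genes, those past 2-fold are named, at most 4 in a comparison by size, and for each main gene the 3 of nearest pattern, of which 1 is not reported here. The genes and lists were chosen with earlier results of these data known. Alternatives were the cell filter, the count filter, the scaling, the thinning depth, the G2/M rule, and leaving out cells with shared barcodes, with markers of other types or in G2/M. Positions are from GENCODE on GRCm38, and promoters from RefSeq on GRCm38.p6, where 8 of the 9 genes matched. Python 3.11.15, numpy 2.4.6, scipy 1.17.1 and matplotlib 3.10.9 were used.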

Additional observations from a re-analysis of the deposited data

Results flagged for a closer look

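In 2 genes the injured and naive libraries differed in opposite directions in the 2 genotypes, with intervals that excluded no change in both. For Ptgs1 on day 1 the log2 ratio over naive was 0.19 in control and -0.41 in A20 cKO. For Alox5ap on day 2 it was 0.44 in control and -0.15 in A20 cKO. Signs also differed for Tbxas1 and Lta4h on day 1 and for Alox5 on day 3, but with an interval that included no change in at least 1 genotype. Each rests on 1 library per group, and the difference between genotypes was not tested. The summed immediate-early genes also went in opposite directions on days 1 and 2. They stood at 921, 18147 and 1552 CPM in control naive, day 1 and day 2, and at 3786, 802 and 728 in A20 cKO. Their part in these ratios was not tested.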

How the results depend on the processing

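Under 8 alternative settings, the 5 ratios past 2-fold stayed past 2-fold in the same direction, and 13 of the 80 ratios changed sign in some setting, the largest of these being 0.12 in size. With no filter on low counts, 1 gene was 2-fold lower from control day 1 to day 2 and 1 was 2-fold higher from control day 2 to day 3, against 0 each, and in both cases it was Ptgs2, on counts of 5 UMIs or fewer. With the mean of CPM per cell in place of the sum, 2 genes were 2-fold lower in A20 cKO day 3 than in control day 3, against 1, because Alox5 reached -1.001. Without G2/M cells, Ltc4s in A20 cKO day 2 over naive was -0.77 and not -0.95. The G2/M comparison on thinned cells was added after the data had been seen. No paired analysis was possible because each group had 1 library, so that no 2 groups share replicate numbers. Pairing the genotypes by day was not run, since genotype is tied to the set of libraries. Depth limits Ptgs2, Alox5 and Lta4h most, and the pooling of animals into 1 library per group leaves the spread between animals unknown.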

Other observations

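Within libraries, Ltc4s was set against Fcrls, a homeostatic microglia gene that was picked after its values had been seen, and the interval of the ratio lay above 0 in 4 of the 8 libraries. Among cells thinned to 2000 UMIs, those with a Fcrls UMI had more Ltc4s than those without in A20 cKO naive, at 572 CPM against 326 (log2 ratio 0.81, interval 0.69 to 0.94), in A20 cKO day 1, at 498 against 266 (0.90, 0.66 to 1.15), and in A20 cKO day 3, at 287 against 165 (0.81, 0.31 to 1.27). In A20 cKO day 2 the interval held 0, at 0.36 (-0.06 to 0.75). The control ratios were 0.35 (0.08 to 0.63) without injury and -0.11 (-0.23 to 0.03), 0.06 (-0.04 to 0.17) and 0.12 (-0.02 to 0.27) after 1, 2 and 3 days. Ptgs1 was also higher in Fcrls-positive cells of A20 cKO naive, at 0.25 (0.15 to 0.36), and day 1, at 0.53 (0.32 to 0.74). The same held, with intervals above 0, for Hpgds (0.49 and 0.45), Hpgd (0.62 and 0.44), Tbxas1 (0.35 and 0.40) and Alox5ap (0.27 and 0.50). For Alox5 and Lta4h the intervals held 0 in both libraries. In control naive the ratios of Hpgds, at 0.46, and Hpgd, at 0.53, were above that of Ltc4s. The difference was thus not particular to Ltc4s.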
